A study of Mus musculus with 9 samples.

Results

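The 10 genes described here take part in, regulate or mark the handling of sodium, calcium and magnesium in the distal convoluted tubule and the connecting tubule of the mouse kidney. They were taken by name: Slc12a3, Pvalb, Trpm6, Calb1, S100g, Trpv5, Slc8a1, Klk1, Wnk1 and Cnnm2. All 10 were found among the 55385 gene identifiers measured, and all 10 were among the 13718 genes that reached 1 FPKM in at least 3 of the 9 libraries and were tested. FPKM is a count of sequenced fragments divided by transcript length and by the mapped total. The study measured whole-kidney RNA of C57BL/6 mice by bulk RNA sequencing in 3 groups. Sham mice had a saline injection, and the other 2 groups were taken on day 3 or day 7 after intraperitoneal cisplatin at 20 mg/kg. Each group held 3 kidney samples, labelled as biological repeats. The sources used here give no age, sex or housing of the mice, and no transgene or deletion is named for any group. Cisplatin is a platinum drug against tumours that damages the kidney tubule. Each value is the level in a whole kidney, so fewer tubule cells and less RNA per cell cannot be told apart.

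The distal convoluted tubule follows the loop of Henle and takes up sodium chloride through the thiazide-sensitive cotransporter encoded by Slc12a3. Calcium crosses the late distal convoluted and connecting tubule through the cell: it enters at the lumen through the channel TRPV5, is bound by the calbindins encoded by Calb1 and S100g, and leaves on the blood side through the sodium-calcium exchanger encoded by Slc8a1 and through plasma membrane calcium pumps. Magnesium enters the same segment at the lumen through the channel TRPM6, and loss of Slc12a3, Trpm6 or Cnnm2 function is known to cause renal magnesium wasting. Renal magnesium wasting is also a known effect of cisplatin in patients.

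Summed FPKM ran from 421810 to 509537 over the libraries, with 11647 to 13183 genes at 1 FPKM or more. The correlation of log2(FPKM + 1) between libraries of 1 group ran from 0.942 to 0.980. Mitochondrial transcripts made up 25.6 to 27.3% of the FPKM in sham, 27.1 to 31.8% on day 3 and 31.7 to 32.6% on day 7. Markers of the proximal tubule and the thick ascending limb fell on day 3 along with most of the 10 genes, and those of other parts of the nephron fell in part. Summed over 8 proximal tubule markers the level was 29600 to 37510 FPKM in sham, 2489 to 16700 on day 3 and 18730 to 28680 on day 7. Kap made up most of this, at 28501 to 35637, 2396 to 16457 and 17596 to 27455 FPKM. By gene, 8 of the 8 were called lower on day 3 by limma (20.6% of all tested genes). On day 7 against sham 1 was called higher (Slc5a12, 1.76 on the log2 scale) and 0 lower (19.3% and 10.4% of all tested genes). Summed over 5 thick ascending limb markers the level was 1079 to 1659, 146.1 to 554.3 and 1271 to 1467. Umod made up most of this, at 894 to 1409, 117 to 481 and 920 to 1066 FPKM. On day 3 all 5 were called lower. On day 7 against sham Slc12a1 was called higher (1.24 ± 0.35 on the log2 scale, limma adjusted p = 0.029) and 0 were lower. Of the collecting duct principal cell, intercalated cell and podocyte markers, 4 of 5, 3 of 5 and 1 of 5 were called lower on day 3 (20.6% of all tested genes) and 0 higher. Against sham on day 7, 0 principal cell markers were called, 1 intercalated cell marker was higher (Atp6v0d2, 0.87) and 1 podocyte marker was lower (Synpo, -0.93). The 5 neutrophil markers summed to 2.40 to 13.8 FPKM in sham, 28.2 to 101.3 on day 3 and 4.25 to 21.6 on day 7, with 1 of the 5 (Ly6g) under 1 FPKM in every library. The 5 macrophage markers summed to 58.6 to 64.0, 107.2 to 137.6 and 25.9 to 67.5 FPKM. Of the 4 that were tested, 1 was higher on day 3 (Cd68, 3.75 to 5.05 FPKM in sham and 86.7 to 113.6 on day 3) and 3 were lower (Csf1r, C1qa and C1qb, by -1.53, -1.33 and -1.26 on the log2 scale). Skeletal muscle markers were low, with 4 of 5 under 1 FPKM in every library and sums of 0.72 to 1.66. The part of these shifts in the results below was not tested. The kidney label fits the proximal and distal markers, none of which was under 1 FPKM in all libraries.

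The stretch of 250 bases before the annotated start was read for the members from RefSeq on build GRCm38.p6. It was found for 9 of the 10, in 10 windows, since Pvalb has 2 starts. 8 words were searched on both strands in these windows and in all 32851 promoters of the table. The 4 windows below are shown because they hold the TATA word or the hormone-receptor word, printed in capitals, 5′ to 3′ on the strand of the gene. Slc12a3 (chr8:94328958-94329207, plus strand) and Trpv5 (chr6:41680724-41680973, minus strand) hold TATAAA. S100g (chrX:162964600-162964849, minus strand) and Klk1 (chr7:44225110-44225359, plus strand) hold AGGTCA, the core bound by many nuclear hormone receptors, or its reverse complement TGACCT.
Slc12a3: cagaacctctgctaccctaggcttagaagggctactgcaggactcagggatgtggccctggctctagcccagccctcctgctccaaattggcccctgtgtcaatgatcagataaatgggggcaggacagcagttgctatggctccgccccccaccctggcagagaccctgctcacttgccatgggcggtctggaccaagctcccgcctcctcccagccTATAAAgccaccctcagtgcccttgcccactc
Trpv5: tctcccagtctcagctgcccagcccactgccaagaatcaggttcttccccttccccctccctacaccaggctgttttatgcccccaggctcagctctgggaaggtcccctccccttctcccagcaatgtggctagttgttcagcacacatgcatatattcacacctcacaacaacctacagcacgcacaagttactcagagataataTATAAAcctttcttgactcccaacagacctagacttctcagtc
S100g: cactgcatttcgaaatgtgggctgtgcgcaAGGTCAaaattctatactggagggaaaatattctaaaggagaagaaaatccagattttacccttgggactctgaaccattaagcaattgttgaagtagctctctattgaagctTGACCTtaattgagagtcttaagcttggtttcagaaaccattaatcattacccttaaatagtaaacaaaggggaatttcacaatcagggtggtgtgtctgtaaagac
Klk1: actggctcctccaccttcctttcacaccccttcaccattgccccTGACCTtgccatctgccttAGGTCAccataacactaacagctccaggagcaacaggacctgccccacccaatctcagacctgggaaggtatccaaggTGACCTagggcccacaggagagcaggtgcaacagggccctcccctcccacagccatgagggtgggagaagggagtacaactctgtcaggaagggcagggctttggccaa

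TATAAA lay 32 bases before the start of Slc12a3 and 43 bases before that of Trpv5, and 12.4% of all promoters hold this word in a window of the same length. AGGTCA was found 3 times in the Klk1 window (206, 187 and 109 bases before the start) and 2 times in the S100g window (220 and 107 bases before), against 14.0% of all promoters with at least 1 match. GGTTCA was found in S100g only among the members (8.85% of all promoters), CCAAT in 3 members (33.8%) and GGGCGG in 3 members (32.7%). GTTAAT (6.43%), CACGTG (6.02%) and TGACGTCA (1.55%) were found in none of the 10 windows. No matches of different words overlapped in these windows. The windows differed in CpG content. Wnk1 held 26 CpG pairs and Cnnm2 19, and the windows of the 2 Pvalb starts held 4 and 23. Slc8a1 held 8, Trpm6 7, Slc12a3 3, S100g 2, Trpv5 1 and Klk1 0, against a median of 6 and quartiles of 2 and 16 over all promoters. A match describes the letters only.

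Sodium chloride entry was followed by the cotransporter gene Slc12a3 (ENSMUSG00000031766, chr8:94329201-94366214, plus strand). Its level was 29.3, 43.8 and 46.2 FPKM in the sham libraries 1 to 3, 1.55, 2.80 and 1.98 on day 3 and 61.9, 58.9 and 77.5 on day 7. The 3 groups did not overlap: day 3 lay below every sham library and day 7 above. On day 3 the group mean was 18.8-fold lower than in sham, a log2 change of -3.70 ± 0.21 (SE, n = 3 per group; limma adjusted p = 5.76e-06). The log2 rise from day 3 to day 7 was 4.44 ± 0.21 (adjusted p = 3.43e-06). The day 7 level was 1.66-fold above sham (0.74 ± 0.21, adjusted p = 0.0312). That last call was lost in 8 of 19 alternatives, 5 of which leave out 1 library: sham 1 (0.54, adjusted p = 0.0748), sham 2 (0.0559), day 7 library 1 (0.0662), day 7 library 2 (0.0554) or day 7 library 3 (0.105). The others were no filter (0.0727), median-of-ratios scaling (0.108) and removal of a GC content and length trend (0.0516).

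Pvalb (ENSMUSG00000005716, chr15:78191114-78206400, minus strand) encodes parvalbumin, a calcium-binding protein of the early distal convoluted tubule. It stood at 8.62, 21.5 and 22.8 FPKM in sham, 0.13, 0.96 and 0.33 on day 3 and 20.0, 15.2 and 20.6 on day 7. Every day 3 library was under 1 FPKM, while day 7 lay inside the sham range. Its mean was 37.3-fold lower on day 3 than in sham (-3.59 ± 0.35, adjusted p = 5.48e-05) and 39.3-fold higher on day 7 than on day 3 (3.76 ± 0.35, adjusted p = 5.64e-05). The difference between day 7 and sham was 0.17 ± 0.35 (adjusted p = 0.750), and -0.25 without sham library 1.

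Wnk1 (ENSMUSG00000045962, chr6:119923969-120038672, minus strand) encodes a kinase upstream of the kinases that phosphorylate and activate the cotransporter. Its level was 8.17, 9.75 and 12.7 FPKM in sham, 8.92, 6.99 and 8.05 on day 3 and 17.7, 16.4 and 19.4 on day 7. Sham and day 3 overlapped, and every day 7 library lay above both. The day 3 difference from sham was -0.31 ± 0.16 (adjusted p = 0.132). It passed the threshold under median-of-ratios scaling (-0.60, adjusted p = 0.0322), under quantile normalization (-0.53, 0.0239) and without sham library 1 (-0.44, 0.0369). On day 7 Wnk1 was 1.74-fold above sham (0.76 ± 0.16, adjusted p = 0.00957), a call lost after removal of the GC content and length trend (0.48, adjusted p = 0.0827). The kidney also makes a short Wnk1 form without the kinase domain, and a value per gene does not separate the forms. A pseudogene on the opposite strand within Wnk1, Gm16199, was listed at 7.51 to 11.8 FPKM, and whether the counting used strand is not given in these sources.

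**Figure D1:**
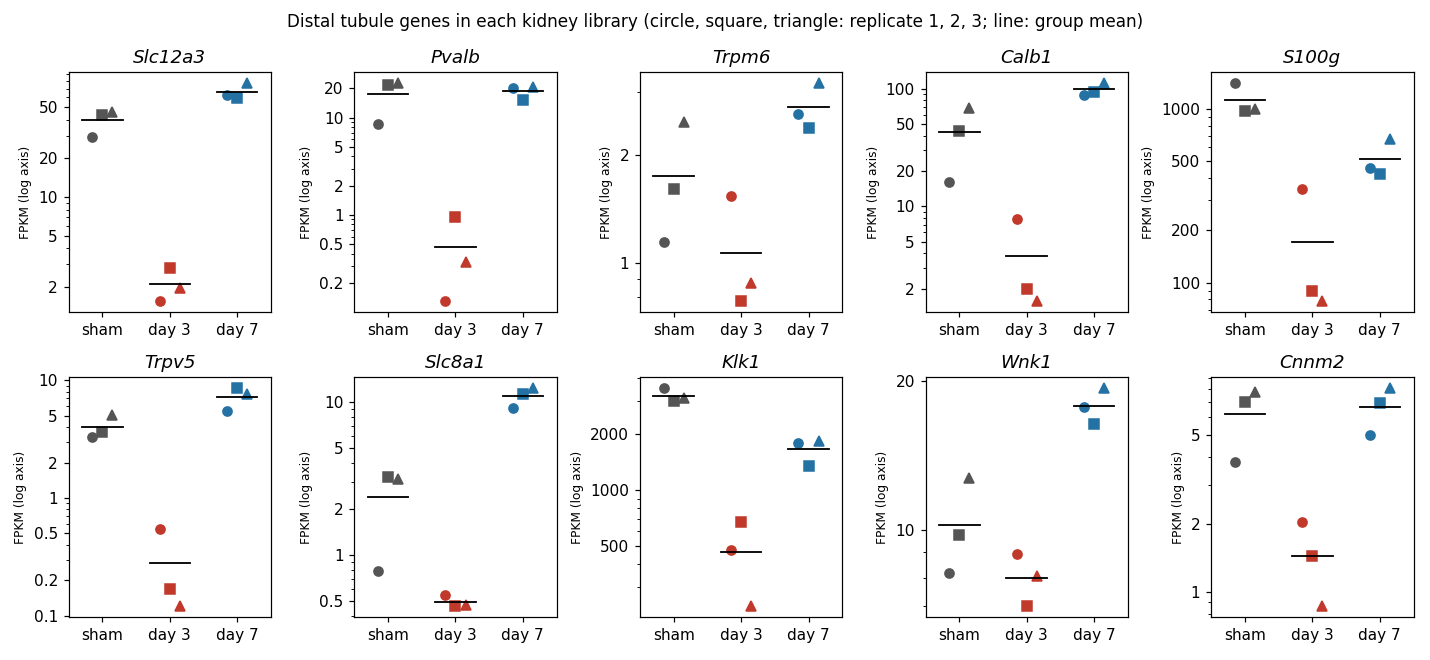
Level of each of the 10 genes in FPKM (log axis) in the 9 kidney libraries, with 1 point per library and the group mean as a line. The day 3 points lie below all sham points in 8 of 10 panels, Trpm6 and Wnk1 being the others, and the day 7 points lie above all day 3 points in every panel.

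In the calcium path, the luminal channel gene, the binding proteins and the exchanger were all lower on day 3, and the channel gene and the exchanger were called higher than sham on day 7. Trpv5 (ENSMUSG00000036899, chr6:41652173-41680769, minus strand), the channel through which calcium enters the cell, was at 3.31, 3.61 and 5.04 FPKM in sham, 0.55, 0.17 and 0.12 on day 3 and 5.51, 8.58 and 7.60 on day 7. The groups did not overlap in any of the 3 comparisons. The day 3 mean was 14.2-fold under sham, and on the log2(FPKM + 1) scale, which understates changes of such low values, the change was -1.96 ± 0.20 (adjusted p = 6.79e-05). With a pseudocount of 0.1 it was -3.57. The day 7 mean was 1.81-fold over sham (0.72 ± 0.20, adjusted p = 0.0276). That call was lost in 10 of 19 alternatives, with adjusted p up to 0.139, among them the fits without sham library 1 (0.0768), sham library 2 (0.0882), day 7 library 2 (0.0918) and day 7 library 3 (0.0837).

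Calb1 (ENSMUSG00000028222, chr4:15881264-15908064, plus strand) encodes the larger calbindin, which buffers and ferries calcium in the cell. Its level was 16.1, 44.2 and 68.2 FPKM in sham, 7.84, 1.97 and 1.56 on day 3 and 89.4, 94.3 and 112.6 on day 7. The groups did not overlap, and the spread was wide in sham and on day 3, with sham library 1 and day 3 library 1 lying towards each other. The mean was 11.3-fold lower on day 3 than in sham (-3.21 ± 0.57, adjusted p = 0.00124) and 26.1-fold higher on day 7 than on day 3 (4.61 ± 0.57, adjusted p = 0.000212). Day 7 was 2.31-fold above sham by the means, yet the log2 difference of 1.40 ± 0.57 did not pass the threshold (adjusted p = 0.0953). It passed without sham library 3 (1.84, adjusted p = 0.0487) and without day 3 library 1 (0.0476), and stood at 0.79 (adjusted p = 0.422) after removal of the GC content and length trend.

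S100g (ENSMUSG00000040808, chrX:162961992-162964599, minus strand) encodes the smaller calbindin, known from the intestine and from the mouse distal nephron. It was at 1410.6, 971.2 and 994.8 FPKM in sham, 346.0, 89.4 and 78.2 on day 3 and 457.7, 419.2 and 669.5 on day 7. Day 7 lay between the other groups and overlapped neither. The mean was 6.57-fold lower on day 3 than in sham (-3.03 ± 0.50, adjusted p = 0.000897) and 3.01-fold higher on day 7 than on day 3 (1.90 ± 0.50, adjusted p = 0.0114). The day 7 difference from sham was -1.13 ± 0.50 (adjusted p = 0.123). It passed the threshold when the 6 libraries of the comparison were fitted alone (adjusted p = 0.0165) and without day 3 library 1 (0.00723), which leaves the value itself at -1.13 and lowers the shared spread. S100g overlaps Ctps2 on the opposite strand, which was listed at 4.70 to 7.78 FPKM.

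Slc8a1 (ENSMUSG00000054640, chr17:81373105-81738377, minus strand) encodes the exchanger that moves calcium out to the blood side against sodium. Its level was 0.79, 3.24 and 3.14 FPKM in sham, 0.55, 0.46 and 0.47 on day 3 and 9.14, 11.3 and 12.4 on day 7. Day 3 lay just under sham library 1 and well under the other sham libraries, and all day 7 libraries lay far above sham. The change on day 3 was -1.08 ± 0.30 (adjusted p = 0.0133), -1.85 with a pseudocount of 0.1, and not called without sham library 2 (-0.87, adjusted p = 0.0512). On day 7 the mean was 4.58-fold above sham (1.91 ± 0.30, adjusted p = 0.00313). This rise was called in all 19 alternatives. It was 1.21 (adjusted p = 0.0498) after removal of the GC content and length trend and 2.37 with a pseudocount of 0.1. Slc8a1 is also expressed in vascular and heart muscle. The 5 summed markers of smooth muscle and mural cells were 53.4 to 65.8 FPKM in sham, 52.8 to 185.9 on day 3 and 30.5 to 51.5 on day 7. The 185.9 was day 3 library 3, with Tagln at 91.3 and Acta2 at 65.5. By gene, 0 of the 5 were called on day 3. Against sham on day 7, 1 was lower (Cnn1, -0.48) and 0 higher (10.4% and 19.3% of all tested genes). The part of these cells in the Slc8a1 values was not tested.

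Magnesium handling was followed by Trpm6 and Cnnm2. Trpm6 (ENSMUSG00000024727, chr19:18749983-18892511, plus strand), the luminal magnesium channel, was the least abundant member in sham, at 1.14, 1.61 and 2.48 FPKM. It was at 1.54, 0.78 and 0.88 on day 3 and 2.61, 2.38 and 3.19 on day 7. The sham range overlapped both other groups, while day 7 lay above day 3 in every library. The day 3 difference from sham was -0.40 ± 0.21 (adjusted p = 0.126), and it passed the threshold in 4 alternatives, among them the fits without sham library 1 (-0.56, adjusted p = 0.0431) and without day 3 library 1 (-0.56, 0.0484). The day 7 difference from sham was 0.47 ± 0.21 (adjusted p = 0.122, and 0.0421 without sham library 3). From day 3 to day 7 Trpm6 rose by 0.86 ± 0.21 (adjusted p = 0.00684), or by 1.32 with a pseudocount of 0.1.

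Cnnm2 (ENSMUSG00000064105, chr19:46761596-46880192, plus strand) encodes a protein of the blood-side membrane of distal tubule cells that takes part in magnesium transport. Its level was 3.78, 7.02 and 7.80 FPKM in sham, 2.05, 1.44 and 0.86 on day 3 and 5, 6.93 and 8.12 on day 7. Day 3 lay below both other groups, which overlapped. It was 4.28-fold lower on day 3 than in sham (-1.54 ± 0.28, adjusted p = 0.00136) and 4.61-fold higher on day 7 than on day 3 (1.66 ± 0.28, adjusted p = 0.00105). Day 7 differed from sham by 0.12 ± 0.28 (adjusted p = 0.773), with -0.15 without sham library 1 and -0.01 without day 7 library 3.

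Klk1 (ENSMUSG00000063903, chr7:44225360-44229618, plus strand) encodes tissue kallikrein, a protease that connecting tubule cells release into urine and blood. It was the most abundant member in each group, at 3537.2, 3004.6 and 3112.2 FPKM in sham, 478.8, 675.5 and 236.4 on day 3 and 1788.3, 1345.0 and 1836.1 on day 7. The groups did not overlap and day 7 lay between the others. The mean was 6.94-fold lower on day 3 than in sham (-2.92 ± 0.33, adjusted p = 0.00012) and 3.57-fold higher on day 7 than on day 3 (1.95 ± 0.33, adjusted p = 0.00123). The day 7 difference from sham was -0.97 ± 0.33 (adjusted p = 0.0580). It passed the threshold in 5 alternatives, among them median-of-ratios scaling (-1.10, adjusted p = 0.0391), quantile normalization (-1.10, 0.0236), and the fits without day 3 library 2 (0.0308) or day 3 library 3 (0.00952). Klk1 belongs to a family of similar genes. There were 23 Klk1b genes in the files, of which 8 reached 1 FPKM in some library, and reads may have been split among them, so the Klk1 level is uncertain.

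**Figure D2:**
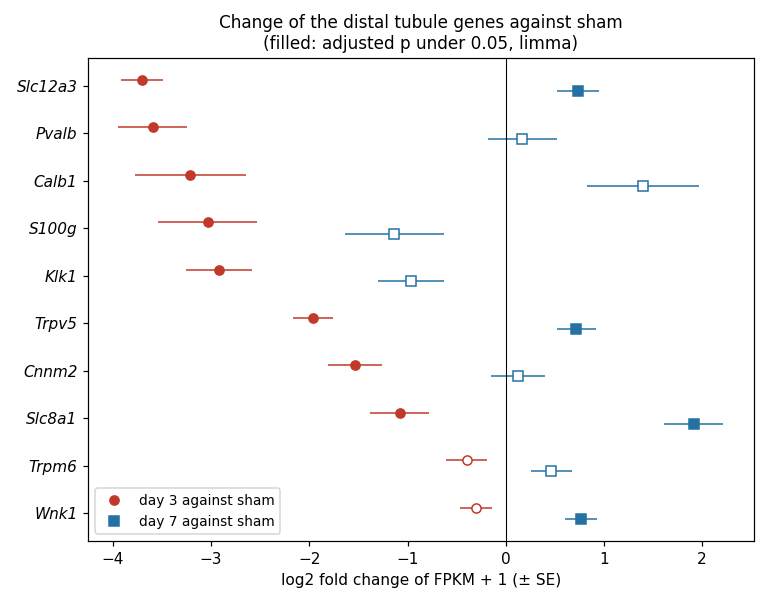
Log2 fold change of FPKM + 1 against sham (x axis, with SE) for the 10 genes (y axis), on day 3 (circles) and day 7 (squares), filled where the adjusted p was under 0.05. 8 circles are filled and all lie left of 0. The 4 filled squares are Slc12a3, Trpv5, Slc8a1 and Wnk1, and the open squares of S100g and Klk1 lie left of 0.

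Counted over the members, 8 of 10 were called lower and 0 higher on day 3 against sham, where 20.6% of all tested genes were called lower and 39.3% higher (59.9% in either direction). Their median log2 change was -2.44, against 0.25 over all tested genes. The 8 lower members also did not overlap with sham (21.8% of all tested genes lay apart from sham in that direction and 42.1% in the other). On day 7 against sham 4 of 10 were called higher and 0 lower, where 19.3% of all genes were called higher and 10.4% lower (29.7% in either direction). The median was 0.59, against 0.06. 5 members lay above the sham range without overlap (29.5% of all genes) and 2 below it (19.1%). On day 7 against day 3 all 10 members were called higher and did not overlap, where 21.7% of all genes were called higher and 33.7% lower (55.4% in either direction). Of all genes, 25.2% lay above day 3 without overlap and 39.2% below. The median was 2.31, against -0.16. The comparisons share libraries, so their counts are not independent of each other.

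Fold changes here depend on the scaling of the libraries. Median-of-ratios scaling moved the median of all genes by -0.25 on day 3 against sham and quantile normalization by -0.22, while rescaling to nuclear protein-coding genes moved it by 0.18. The share of called genes that were higher was 65.6% on day 3 as deposited, 49.5% under median-of-ratios scaling, 51.2% under quantile normalization and 75.4% after rescaling to nuclear protein-coding genes. On day 7 against sham it was 64.9%, 47.5%, 52.7% and 86.4%, and on day 7 against day 3 it was 39.2% as deposited, 50.1% under median-of-ratios scaling and 49.8% under quantile normalization. The 8 calls on day 3 and the 10 calls between day 3 and day 7 stood under each of these 3 scalings. On day 7 against sham, 2 of the 4 higher calls (Slc8a1 and Wnk1) stood under all 3.

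The order of the levels changed between the groups. FPKM is divided by transcript length, but the day 7 changes of all genes went with length and GC content, as given below. The Klk1 level keeps some uncertainty, as given above. The order of the members is therefore a description. In sham the order of the means was Klk1, S100g, Calb1 (42.8 ± 26.1 FPKM, SD, n = 3), Slc12a3 (39.8 ± 9.16), Pvalb (17.65 ± 7.85), Wnk1 (10.2 ± 2.32), Cnnm2 (6.20 ± 2.13), Trpv5 (3.99 ± 0.92), Slc8a1 (2.39 ± 1.39) and Trpm6 (1.74 ± 0.68). The libraries of Calb1 overlapped with those of Slc12a3, Pvalb with Wnk1, Cnnm2 with Trpv5 and Slc8a1 with Trpm6, while the other neighbours in this order did not overlap. On day 3 Wnk1 (7.99 ± 0.97) stood in the place after S100g, above Calb1 (3.79 ± 3.51), with which it overlapped, and Slc12a3 (2.11 ± 0.64), with which it did not. On day 7 Slc8a1 (10.95 ± 1.66) stood above Trpv5 (7.23 ± 1.57) and Cnnm2 (6.68 ± 1.58) without overlap, and those 2 genes overlapped.

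Klk1 and S100g together made up 96.1 to 98.6% of the summed FPKM of the 10 members in sham, 95.7 to 98.0% on day 3 and 89.2 to 91.4% on day 7. The other 8 members summed to 71.2, 134.7 and 168.4 FPKM in sham, 23.1, 15.6 and 14.3 on day 3 and 211.3, 214.0 and 261.4 on day 7. That sum was above every sham library on day 7, while Klk1 and S100g were each below every sham library. The sum was mostly Calb1 and Slc12a3 on day 7 (means of 98.75 and 66.13 FPKM). By gene, Pvalb, Trpm6 and Cnnm2 overlapped sham on day 7, and Calb1 was not called.

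The 2 calbindin transcripts stood in a different FPKM ratio on day 7. The ratio of S100g to Calb1 in FPKM was 87.8, 22.0 and 14.6 in the sham libraries, 44.1, 45.4 and 50.1 on day 3 and 5.12, 4.45 and 5.95 on day 7. Every day 7 library lay below all others, and sham library 1 lay above all. The ratio of Klk1 to Slc12a3 was 121.0, 68.6 and 67.4 in sham, 309.0, 241.0 and 119.0 on day 3 and 28.9, 22.8 and 23.7 on day 7. It was likewise lowest in the 3 day 7 libraries. The ratio of Slc8a1 to Slc12a3 was 0.027, 0.074 and 0.068 in sham, 0.355, 0.164 and 0.237 on day 3 and 0.148, 0.192 and 0.160 on day 7. Both cisplatin groups lay above sham in that ratio, and they overlapped each other. These ratios are descriptions without a test, and they do not depend on a scaling of the libraries by 1 factor each. They can depend on a trend with length and GC content, since the genes of a pair differ in these. The longest transcript has 480 bases for S100g, 4222 for Calb1, 954 for Klk1, 4310 for Slc12a3 and 18464 for Slc8a1. Neither S100g nor Calb1 was called on day 7 against sham. Calb1 stood at 0.79 there after removal of that trend (limma adjusted p = 0.422).

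**Figure D3:**
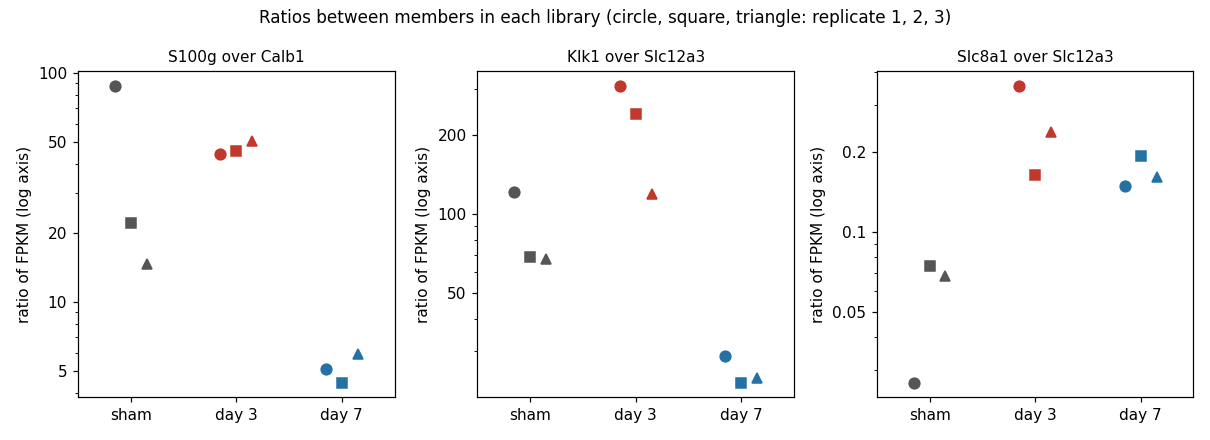
Ratio of FPKM (log axis) between 3 pairs of the genes in each of the 9 libraries, 1 point per library. The day 7 points are the lowest for S100g over Calb1 (4.45 to 5.95) and for Klk1 over Slc12a3 (22.8 to 28.9), and the sham points are the lowest for Slc8a1 over Slc12a3 (0.027 to 0.074).

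Within the groups, libraries that were low in 1 member tended to be low in others. Sham library 1 lay below the sham mean in 8 of the 10 members, with Calb1 lowest relative to its mean (-1.14 on the log2 scale). It lay above the mean for S100g and Klk1. Day 3 library 1 held the highest Calb1 and S100g of its group, and day 7 library 3 lay above its group mean in all 10 members. After subtraction of the group means, the correlation of log2 levels over the 9 libraries was above 0 for 39 of the 45 pairs of members, with a median of 0.45 and a range of -0.45 to 0.96. The highest were Trpm6 with Wnk1 (0.96), Slc12a3 with Pvalb (0.94) and Trpm6 with Calb1 (0.93). The libraries share their depth and composition across genes, so these values describe the 9 libraries only.

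Transcript length and GC content went with the day 7 changes of all genes. The median day 7 change against sham was -0.19 in the shortest of 5 length classes (up to 1365 bases) and 0.35 in the longest (from 4790 bases). It was 0.54 in the lowest of 5 GC classes and -0.35 in the highest. The day 3 changes against sham also went with GC content, with medians of 0.60 in the lowest class and 0.005 in the highest. By length, the day 3 medians were 0.21 in the shortest class and 0.36 in the longest. Among the members, the 3 with the shortest longest transcript were S100g (480 bases), Klk1 (954) and Pvalb (977), with day 7 changes of -1.13, -0.97 and 0.17. The longest were Wnk1 (11330 bases) and Slc8a1 (18464), with 0.76 and 1.91. After a GC content and length trend was removed from each library, 856 genes were called on day 7 against sham in place of 4075. Slc8a1 was then the 1 member called (1.21). The 8 members called on day 3 and the 10 called between day 3 and day 7 were called after this removal too. The part of length and GC content in the day 7 values was not tested beyond this.

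**Figure D4:**
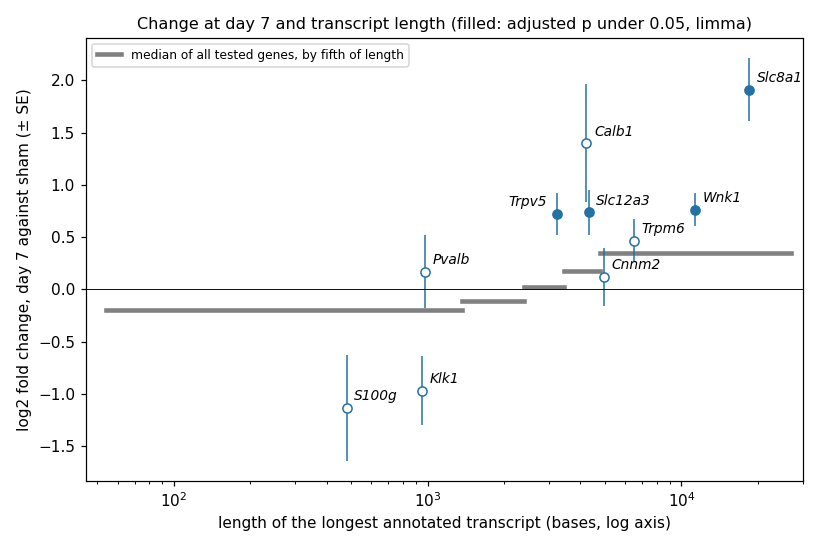
Log2 fold change on day 7 against sham (y axis, with SE) of the 10 genes against the length of the longest annotated transcript in bases (log x axis), filled where the adjusted p was under 0.05. Grey bars give the median change of all tested genes in each of 5 length classes, from -0.19 to 0.35. S100g and Klk1 lie under the bar of their class and Slc8a1 lies above its own.

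Partners of the same pathways were taken from 6 lists of 60 genes, of which 51 were tested. On day 3 against sham 13 of the 51 were called higher and 25 lower, on day 7 against sham 12 and 3, and on day 7 against day 3 29 and 7. The shares of all tested genes given above (39.3% higher and 20.6% lower on day 3, 19.3% and 10.4% on day 7, 21.7% and 33.7% between the days) are the background for these and the following counts. On day 3 the counts were 9 higher and 31 lower under median-of-ratios scaling, and on day 7 against sham they were 18 and 1 after rescaling to nuclear protein-coding genes and 2 and 0 after removal of the GC content and length trend. Among partners of the calcium path, 3 of the 4 tested were higher on day 3 and 0 lower. Annexin A2 (Anxa2) and its partner S100a10, which bring TRPV5 to the cell surface, rose by 2.58 ± 0.34 (adjusted p = 0.000244) and 2.20 ± 0.47 (adjusted p = 0.00339). S100a10 stood at 219.7, 69.4 and 54.6 FPKM in sham and 558.3, 405.3 and 364.4 on day 3, opposite to Trpv5. Both genes are also expressed in many other cell types. The calcium pump Atp2b1 rose on day 3 (1.21 ± 0.17, adjusted p = 0.000367) and day 7 (0.96 ± 0.17, adjusted p = 0.00497), where it stood at 0.35 (adjusted p = 0.186) after removal of the GC content and length trend. The pump Atp2b4 rose on day 7 (1.32 ± 0.28, adjusted p = 0.00961, and 0.0780 after that removal), from 0.16, 0.21 and 0.36 FPKM in sham to 2.78, 3.15 and 0.88. The second epithelial calcium channel, Trpv6, named here after its values were seen, stayed under the filter at 0.37 to 2.09 FPKM.

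In the calcium and mineral hormone axis, 5 of 8 genes fell on day 3 and 1 rose. One of the 5, the vitamin D receptor gene Vdr, named here after its values were seen, overlapped with sham (41.0, 14.1 and 13.8 FPKM on day 3, 40.5 to 43.4 in sham). Its call was lost in 8 of 19 alternatives, 5 of which leave out 1 library (adjusted p 0.0588 to 0.110). The parathyroid hormone receptor gene Pth1r went from 145.7, 177.3 and 181.9 FPKM in sham to 20.0, 9.42 and 10.7 (-3.62 ± 0.25, adjusted p = 1.19e-05). Klotho (Kl), a co-receptor for the phosphate hormone FGF23, went from 24.7, 62.1 and 82.9 to 4.26, 2.69 and 2.77 (-3.62 ± 0.38, adjusted p = 7.76e-05). Kl was at 83.2, 85.9 and 102.7 FPKM on day 7 and rose by 4.45 from day 3 (adjusted p = 3.62e-05). The calcium-sensing receptor gene Casr fell by 1.69 on day 3 (adjusted p = 3.41e-05). Cyp27b1, which makes active vitamin D, rose on day 3 from 1.93, 1.48 and 0.53 FPKM to 5.79, 5.79 and 5.93 (1.62 ± 0.26, adjusted p = 0.000722). On day 7 Casr was higher than sham (0.51, adjusted p = 0.0330) and Cyp24a1, which breaks vitamin D down, was lower (-1.19 ± 0.38, adjusted p = 0.0456). These calls were lost in 10 and 12 of 19 alternatives, 5 and 6 of which leave out 1 library (sham 1, sham 2 or any day 7 library for Casr, adjusted p 0.0570 to 0.103, and any library but day 3 libraries 1 and 2 and day 7 library 3 for Cyp24a1, 0.0563 to 0.127). Pth1r is also a gene of the proximal tubule, whose markers fell on day 3 as given above.

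Among partners of the magnesium path, 6 of 12 tested genes fell on day 3 and 3 rose. Egf, the precursor of a growth factor that stimulates TRPM6, went from 45.3, 63.7 and 73.4 FPKM in sham to 1.40, 8.24 and 5.70 on day 3 (-3.52 ± 0.45, adjusted p = 0.000229). It returned to 92.7, 63.7 and 107.4 on day 7, overlapping sham. Fxyd2, a subunit that modulates the sodium pump, fell on day 3 (-1.78 ± 0.14, adjusted p = 1.79e-05) and was lower than sham on day 7 (-0.58 ± 0.14, adjusted p = 0.0144). The day 7 call was lost in 5 alternatives. These were the fits without sham library 2 (0.0567) or day 7 library 3 (0.0578), and removal of the GC content and length trend (0.259). The others were quantile normalization (-0.26, adjusted p = 0.171) and rescaling to nuclear protein-coding genes (-0.35, 0.0692). Pcbd1, a transcription cofactor gene linked to inherited magnesium loss, fell by 1.60 (adjusted p = 1.91e-05) on day 3. Trpm7, the wider expressed relative of Trpm6, rose on day 7 against sham (1.22 ± 0.23, adjusted p = 0.00597, and 0.53 with adjusted p = 0.210 after removal of the GC content and length trend), with 3.28, 2.59 and 2.29 FPKM in sham and 9.21, 7.53 and 6.30 on day 7. Trpm7 was already called higher on day 3 (0.83 ± 0.23, adjusted p = 0.0123), at 7.11, 6.57 and 3.62 FPKM. That call was lost under quantile normalization (adjusted p = 0.0585) and after that removal (0.157). Between the days Trpm7 was not called (0.39, adjusted p = 0.179). Slc41a1, a magnesium transporter gene, fell by 1.46 from day 3 to day 7 (adjusted p = 9.00e-05). It stood at 8.87, 12.9 and 12.6 FPKM on day 3 and at 3.39 to 4.30 in sham.

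Of 8 genes of basolateral transport, 5 fell on day 3 and 0 rose. The call of 1 of the 5, Atp1b1 (-0.51 ± 0.16, adjusted p = 0.0249), was lost in 8 of 19 alternatives, with -0.23 (adjusted p = 0.306) under quantile normalization. The chloride channel subunit gene Bsnd (-3.16 ± 0.32, adjusted p = 6.64e-05) and the potassium channel gene Kcnj10 (-2.07 ± 0.20, adjusted p = 5.35e-05) were among them. The sodium pump subunit gene Atp1b1 was above sham on day 7 (0.72 ± 0.16, adjusted p = 0.0126), at 738.5, 791.1 and 728.2 FPKM against 453.9, 442.8 and 474.8. Kcnj16 was not called in any comparison, and on day 3 its libraries lay apart, at 2.10, 29.6 and 23.5 FPKM.

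Control genes of the cotransporter split on day 3, with 6 of 13 tested genes higher and 7 lower. Of the 6, Stk39, Klhl2 and Cul3 lost their call with median-of-ratios scaling (adjusted p 0.130 to 0.145), and Stk39 and Klhl2 were not called under quantile normalization (0.149 and 0.185). Of the 7, Nedd4l, named here after its values were seen, overlapped with sham (-0.50 ± 0.18, adjusted p = 0.0430). The Nedd4l call was lost in 10 alternatives, 7 of which leave out a library. Klhl3, the adaptor that marks WNK kinases for degradation, went from 6.77, 5.45 and 7.41 FPKM in sham to 0.63, 0.50 and 0.35 (-2.33 ± 0.14, adjusted p = 6.29e-06). Hsd11b2, which shields the mineralocorticoid receptor from cortisol-like steroids, fell by 3.78 ± 0.64 (adjusted p = 0.000964), and the phosphatase inhibitor gene Ppp1r1a fell by 3.00 ± 0.38 (adjusted p = 0.000209). The aldosterone-induced kinase gene Sgk1 rose by 1.58 ± 0.33 (adjusted p = 0.00304). On day 7 against sham 6 were higher and 0 lower. They included Stk39, the kinase that phosphorylates the cotransporter (0.70 ± 0.16, adjusted p = 0.0140, and 0.0510 without day 7 library 2), its scaffold gene Cab39 (0.82 ± 0.10, adjusted p = 0.00176), the ubiquitin ligase gene Cul3 (0.91 ± 0.15, adjusted p = 0.00399) and the adaptor gene Klhl2 (0.59 ± 0.13, adjusted p = 0.0110). The others, Cab39l and Nr3c2, are named here after their values were seen. Cab39l (0.51 ± 0.16, adjusted p = 0.03955) lost its call in 10 alternatives, 7 of which leave out a library. Nr3c2 (0.47 ± 0.12, adjusted p = 0.0176) lost its call in 6, 3 of which leave out a library. After removal of the GC content and length trend Stk39, Cul3 and Klhl2 stood at 0.63, 0.28 and 0.14 and were not called (adjusted p 0.0676, 0.248 and 0.482). Cab39l and Nr3c2 then stood at 0.05 and 0.17 (adjusted p 0.895 and 0.44). Wnk4, named here after its values were seen, fell on day 3 (-1.20 ± 0.21, adjusted p = 0.00112), where Wnk1 was not called. The difference between these 2 kinase genes was not tested.

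Among 6 tested transcription factors and markers of the distal tubule, Tmem52b and Emx1 fell on day 3. Tmem52b went from 43.3, 49.7 and 61.1 FPKM in sham to 1.56, 0.77 and 0.70 on day 3 and 70.2, 86.7 and 87.3 on day 7. It was above sham on day 7 (0.66 ± 0.19, adjusted p = 0.0325), a call lost in 9 of 19 alternatives, among them the fits without sham library 1 (0.0888), sham library 2 (0.0903), day 7 library 2 (0.0960) or day 7 library 3 (0.0995). Emx1 went from 14.7, 15.8 and 12.95 FPKM to 0.99, 0.63 and 0.73 and then to 7.73, 7.94 and 9.17, below sham without overlap (-0.74 ± 0.13, adjusted p = 0.00408, and -0.33 with adjusted p = 0.224 after removal of the GC content and length trend). Hoxd8 and Tfap2b were not called against sham on either day. No gene of these lists was called with the opposite sign under any alternative. Of the 15 calls on day 7 against sham, 13 were lost after removal of the GC content and length trend, and the others were Atp1b1 and Cab39.

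**Figure D5:**
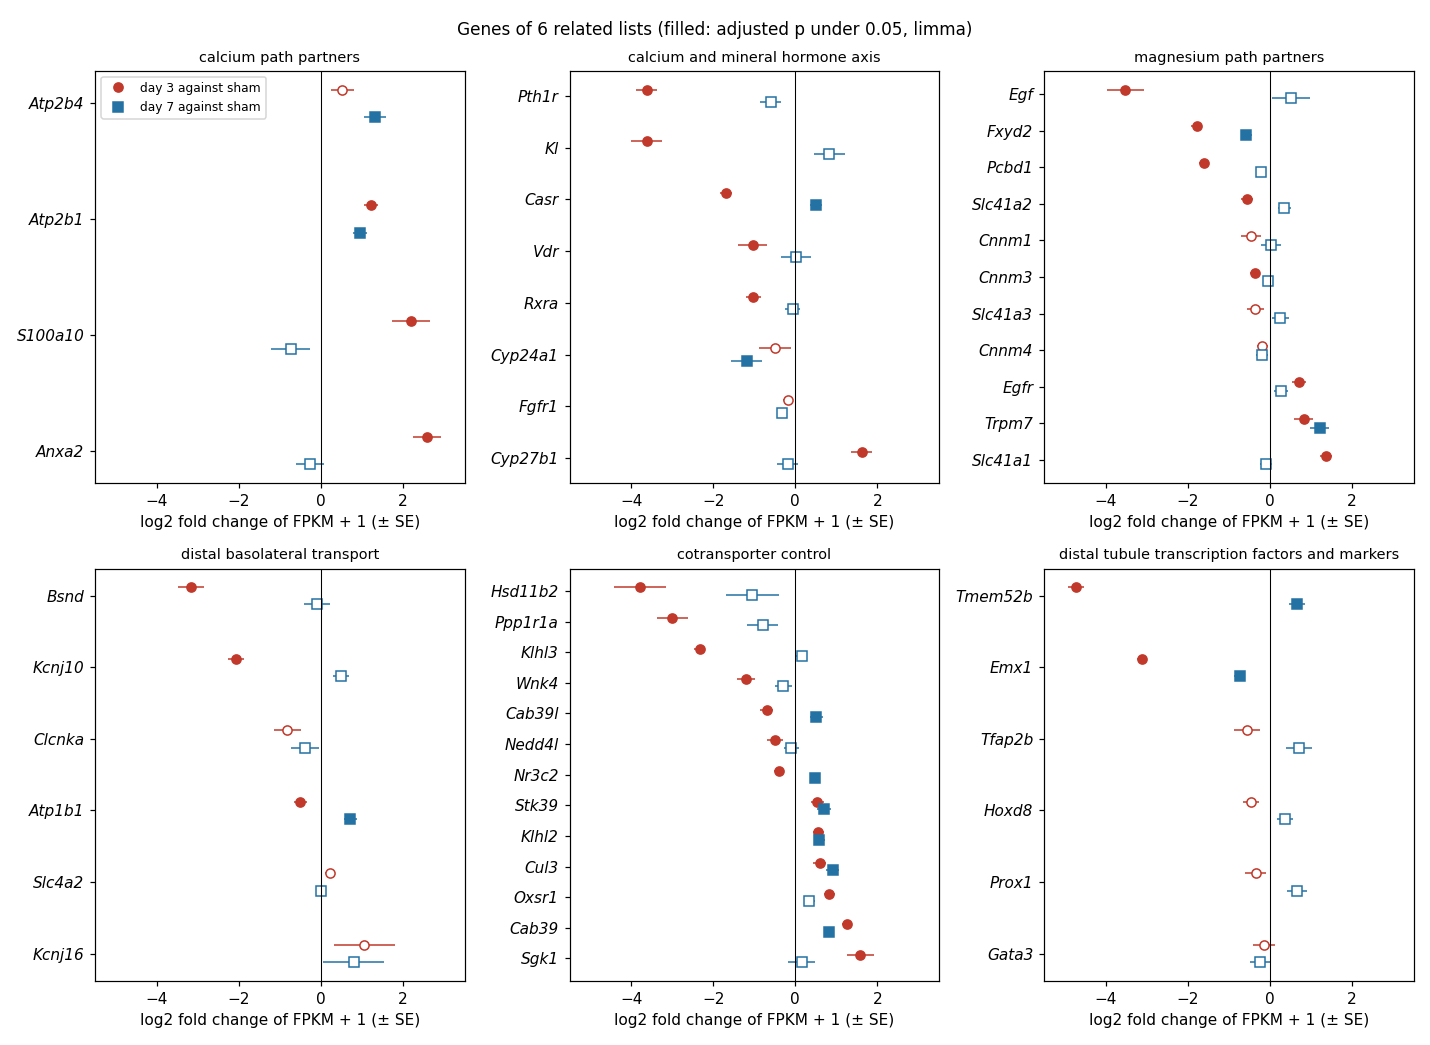
Log2 fold change of FPKM + 1 against sham (x axis, with SE) of 48 of the 51 tested genes of 6 related lists (panels), on day 3 (circles) and day 7 (squares), filled where the adjusted p was under 0.05. 5 genes of the mineral hormone axis fell on day 3, and the control genes of the cotransporter lie on both sides of 0.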

How the data were processed

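The authors deposited 1 file of FPKM per gene for each of 9 kidney libraries, per the file headers. HISAT, StringTie, FastQC 0.10.1 and build GRCm38 are named in the submitters' processing notes. Their settings, the annotation release and the use of strand are not stated in these sources. Per the labels' protocols, RNA had an integrity number above 7.0 and libraries were directional. The files hold no counts, so read depth is unknown and no counting interval is given.

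Identifiers were matched to GENCODE M21 (55144 of 55385). The 13718 genes reaching 1 FPKM in 3 or more libraries were fitted as log2(FPKM + 1) with limma 3.58.1 in R 4.3.3, with a mean-variance trend, 3 groups, all 9 libraries, two-sided tests and Benjamini-Hochberg adjustment at 0.05. The fit was tested on simulated data. The 3 samples of a group are labelled biological repeats with no animal named. Each p-value sets a difference between groups against the spread between these samples within groups. That spread is pooled over all 9 libraries and drawn by limma towards a trend over all tested genes. Other settings tried were 3 other scalings, a filter at 5 FPKM or none, a pseudocount of 0.1, robust variance, 6 libraries only, a replicate block, removal of a GC content and length spline (5 degrees of freedom) and leaving out each library. The members and lists were chosen with earlier results of these data known. Named from each list were up to 4 called genes of largest change whose mean in some group reached 1 FPKM, and up to 2 abundant uncalled genes. Of these, 3 are counted but not reported here by name. Promoters were read from RefSeq.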

Additional observations from a re-analysis of the deposited data

Results flagged for a closer look

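Slc12a3, Trpv5 and Slc8a1 moved in opposite directions from sham on the 2 days, lower on day 3 and higher on day 7, each past the threshold in both comparisons. The day 7 level differed from the day 3 level by 4.44 for Slc12a3, 2.68 for Trpv5 and 2.99 for Slc8a1 on the log2 scale. The genes were picked by both calls against sham and by a call between the days, so this difference was part of the choice. It is given as a description. Both comparisons with sham share the 3 sham libraries. The day 7 calls of Slc12a3 and Trpv5 were lost in 8 and 10 of the 19 alternatives, and that of Slc8a1 in 0. Groups of 3 libraries were not tested for single libraries that stand apart.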

How the results depend on the processing

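All 8 members called lower on day 3 and all 10 called higher on day 7 against day 3 were called in each of the 19 alternatives, except Slc8a1 on day 3 without sham library 2 and Trpm6, which the filter at 5 FPKM removes. Leaving out 1 library at a time, 7 to 10 members were lower on day 3, 2 to 6 were higher and 0 to 1 lower on day 7 against sham, and 7106 to 8221, 2470 to 4719 and 6267 to 7901 genes were called on day 3, on day 7 against sham and between the days. The filter at 5 FPKM, which tests fewer genes, called 5104 genes on day 3 and 4973 between the days, and removal of the GC content and length trend called 856 on day 7. On day 7 against sham, 2 members were higher with no filter and 2 under median-of-ratios scaling, and 1 after the GC content and length removal. There 1 member was lower under median-of-ratios scaling, 1 under quantile normalization and 2 with 6 libraries alone. The cause was not tested. The sign of an uncalled day 7 value turned for Cnnm2 without sham library 1 (-0.15) and day 7 library 3 (-0.01), and for Pvalb without sham library 1 (-0.25). The highest values with 1 library left out were 0.29 and 0.40, both without sham library 3.

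Replicate numbers are not stated to pair the samples, and 3 libraries per group are too few to settle it. The deviations of same-numbered libraries correlated at -0.05 to 0.24, over 0.1 in 3 of 9 pairs. Those of libraries with different numbers correlated at -0.28 to 0.11. In 9 of 18 comparisons, each with 3 libraries to choose from, the correlation was highest with the own number. With the number as a block, 8 members were lower on day 3, 3 were higher on day 7 (4 without it, Trpv5 then at adjusted p = 0.0509) and 10 between the days, with 8212, 3885 and 7540 genes called. Depth could not be judged from FPKM, and values under 1 FPKM, such as Trpv5 and Pvalb on day 3, rest on an unknown number of fragments.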
